A study of Mus musculus with 2 samples.

Results

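The complement components and receptors described here are 9 genes, measured in CD45+ cells of 2 mouse melanomas: C1qa, C1qb, C1qc, C3, Cfb, Cfp, Serping1, C3ar1 and C5ar1. They were taken by symbol from the deposited matrix, which held all 9 of them among its 12584 genes, and were followed across the 16 cell populations named by the authors and across both libraries. The tumours came from YUMM3.3, a mouse melanoma line with an activating Braf mutation and without Cdkn2a, injected under the skin of C57BL/6 mice and taken at day 12 by the series record, although a different day is named in the study's methods. The NTT tumour grew from the targeted therapy-naive line, and the RTT tumour from a derivative resistant to BRAF inhibition that was kept in dabrafenib, a BRAF inhibitor, in culture. Live CD45+ cells, the leukocytes, were sorted and sequenced as 1 droplet library per tumour, which reads the 3′ ends of transcripts and counts each molecule once through a unique molecular identifier (UMI). Each group is 1 tumour, so effects of the line, the mouse and the library preparation cannot be told apart, and no test was possible. Levels are given as CPM, the UMIs of a gene scaled to 1000000 UMIs of the same cells, and differences as the log2 ratio of CPM, RTT over NTT. All intervals are exact 95% intervals that cover counting error only.

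Complement is a protein cascade that tags targets for uptake and sends signals to leukocytes. C1q, built from the products of C1qa, C1qb and C1qc, is the recognition molecule of the classical pathway, and in tissues macrophages are its main source. C3 is the central component on which all pathways meet. Factor B (Cfb) forms the C3-cleaving enzyme of the alternative pathway, and properdin (Cfp) stabilises that enzyme. The C1 inhibitor (Serping1) blocks the proteases that C1q activates, and C3ar1 and C5ar1 are the receptors for the released fragments C3a and C5a.

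In the GENCODE annotation of GRCm38, the 3 C1q genes lie side by side on the minus strand of chromosome 4, C1qb at 136880129 to 136886187, C1qc at 136889804 to 136893065 and C1qa at 136895917 to 136898803, within 18675 bases. C3 lies on chromosome 17 at 57203970 to 57228136 and Cfb on the same chromosome at 34856374 to 34862518. The promoters of 2 genes are shown because C1qb and C3 went in opposite directions between the libraries: each run is the 250 bases before the gene start, from RefSeq (GRCm38.p6), 5′ to 3′ on the strand of the gene. Capitals mark matches, on either strand, to GAGGAA, the core bound by the myeloid factor PU.1, in C1qb, and to TTNCNNAA, a loose form of the site bound by C/EBP factors, in C3.
C1qb, chr4:136886201-136886450, minus strand: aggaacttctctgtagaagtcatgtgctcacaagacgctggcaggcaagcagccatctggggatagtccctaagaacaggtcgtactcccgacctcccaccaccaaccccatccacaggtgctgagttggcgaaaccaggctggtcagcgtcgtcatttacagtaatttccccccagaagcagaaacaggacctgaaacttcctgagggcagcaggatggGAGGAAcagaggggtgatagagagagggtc
C3, chr17:57228137-57228386, minus strand: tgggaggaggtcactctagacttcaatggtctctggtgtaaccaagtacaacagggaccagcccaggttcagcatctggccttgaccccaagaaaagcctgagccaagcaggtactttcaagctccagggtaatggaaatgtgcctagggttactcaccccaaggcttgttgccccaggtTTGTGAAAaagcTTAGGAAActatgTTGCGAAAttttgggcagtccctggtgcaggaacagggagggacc

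The C1qb window held 1 GAGGAA, which began 30 bases before the start, and no TTNCNNAA. The C3 window held 3 matches to TTNCNNAA, beginning 70, 58 and 45 bases before the start, and no GAGGAA. No matches within these windows overlapped. Of 32851 windows of this length, 23.3% held GAGGAA and 36.8% held TTNCNNAA, so either match alone is common. Among the other member windows, GAGGAA was found only in C1qc, 193 bases before the start. TTNCNNAA was found in C1qc (81 bases) and C5ar1 (157 bases), and the C3ar1 and Cfp windows held neither. C1qc, which went the same way as C1qb, thus held both. The interferon response element core GAAANNGAA, in 7.13% of all windows, was found in 1 of the 6 member windows that could be read, that of C5ar1, where it began 66 bases before the start. The gamma-activated site TTCNNNGAA, in 7.02% of all windows, was found in 0 of the 6. Starts here are those of RefSeq, and the windows of C1qc, C5ar1 and, at its edge, C3ar1 ran into the genes as GENCODE bounds them. The C1qc window spanned 136892915 to 136893164, and the gene reached to 136893065. The C5ar1 window spanned 16259339 to 16259588, and the gene reached to 16259540. The matches at 81 bases in C1qc and at 157 and 66 bases in C5ar1 lay inside those genes. A match describes letters in a window and does not show binding.

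The NTT library held 2975 cells and 19634099 UMIs, the RTT library 4840 cells and 44712071 UMIs, and the median cell held 5398 and 8336 UMIs. Monocytes made up 54.3% of NTT and 4.11% of RTT cells, and macrophages 19.6% and 82.8%, so a value over all cells also carries this change of make-up. There were 7 barcodes that occurred in both libraries. Summed marker lists of macrophages, neutrophils, NK cells, fibroblasts and each kind of dendritic cell were highest in populations so named, and monocyte markers in Infl_Mono (NTT) and Monocyte_1 (RTT). In 2 RTT populations other markers stood beside the C1q values. The 29 RTT cells labelled Neutro held macrophage markers at a summed 19116 CPM, against 2110 CPM in NTT Neutro, and neutrophil markers at 15892 CPM, against 73743 CPM. In RTT Infl_Mono, the inflammatory monocytes, macrophage markers summed to 14902 CPM and monocyte markers to 4515 CPM, against 4429 and 14836 CPM in NTT Infl_Mono. The NK_cells population also held T cell markers, at 3185 CPM in NTT and 2303 CPM in RTT.

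Over all cells the set split in opposite directions. The 3 C1q chains and C5ar1 were 1.92-fold to 2.10-fold higher in RTT, while C3 was 9.62-fold and Cfb 12.4-fold lower, with log2 ratios of -3.27 (-3.39 to -3.15) and -3.63 (-3.72 to -3.53). The minimum of 500 UMIs over both libraries was passed by 8 members, all but Serping1. Of the 8, 2 were at least 2-fold higher in RTT, C1qb at 1.07 and C5ar1 at 1.05, where 8.18% of the 8220 genes tested were. Another 2 were at least 2-fold lower, C3 and Cfb, where 9.6% of all genes were. C1qa (0.97) and C1qc (0.94) lay just under 2-fold, and Cfp (0.57) and C3ar1 (0.50) were higher by less. The median log2 ratio was 0.75 over the 8 members and 0.10 over all genes tested.

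Within monocytes and within macrophages C3 and Cfb were also lower in RTT, and the C1q difference was smaller than over all cells. In monocytes (Monocyte_1, Monocyte_3 and Infl_Mono), 8 members passed a minimum of 200 UMIs. Of these 8, 0 were at least 2-fold higher, against 2.97% of 5326 genes, and 1 was at least 2-fold lower, Cfb at -1.93, against 6.74%. In macrophages (the 4 TAM populations, Macro and Ctsk_Macro), 0 of 8 were higher, against 4.61% of 8888 genes, and 2 were lower, C3 at -3.0 and Cfb at -3.67, against 6.18%. In dendritic cells, 4 members passed: C1qa (1.09), C1qb (1.31) and Cfp (1.06) were at least 2-fold higher, against 4.83% of 4407 genes. C1qc was at 0.86, and 0 of 4 were lower, against 7.56%. C3 (-3.05, on 40 and 5 UMIs) and Cfb (-2.70, on 132 and 21 UMIs) were lower there too, but lay under the minimum of 200 UMIs. C1q detection in dendritic cells was not above that in NK_cells, as given below. For Cfp no single dendritic population reached 2-fold, with cDC2 at 0.67, cDC1 at 0.07 and DC3 at 0.96, while cDC2 were 279 of 492 dendritic cells in NTT and 413 of 526 in RTT. With TMM scaling the class value of Cfp was 0.995.

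**Figure D1:**
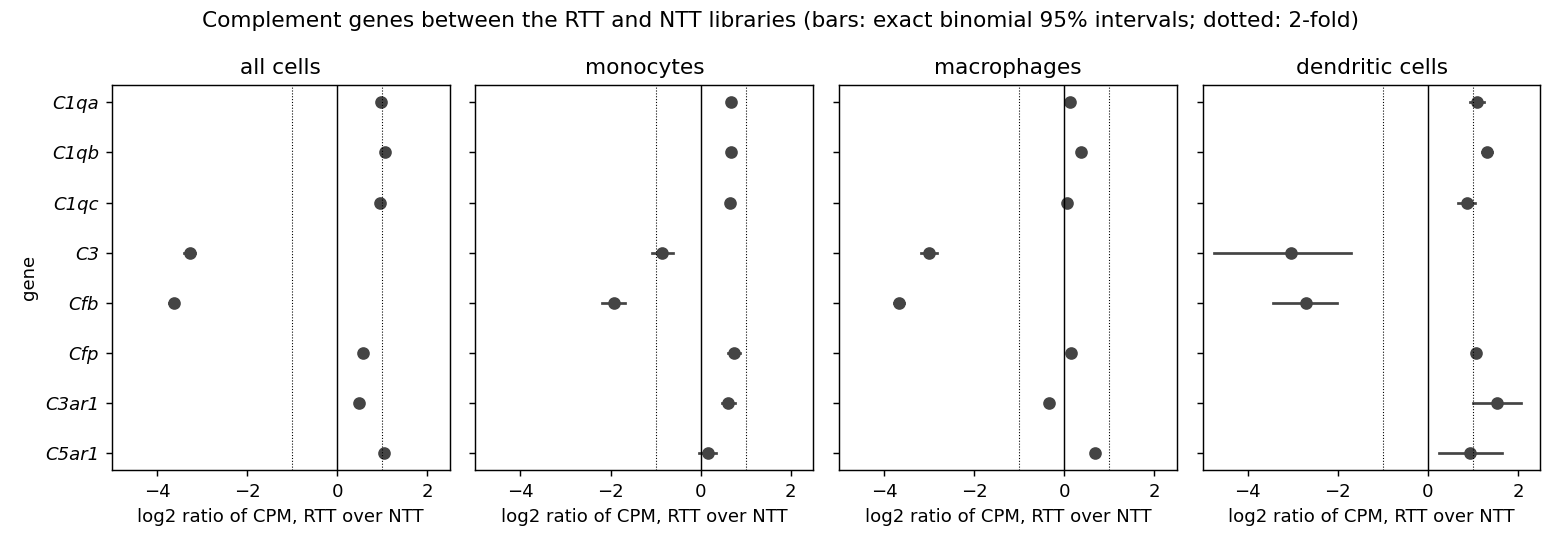
Log2 ratios of CPM (RTT over NTT, horizontal axis) of 8 complement genes over all cells and within 3 cell classes, 1 library per group. Points are ratios, bars exact binomial 95% intervals of the counts and dotted lines 2-fold; C3 and Cfb lie left of 0 in each panel, at -0.85 and -1.93 in monocytes and at -3.0 and -3.67 in macrophages, while the C1q genes lie right of it.

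In both libraries C1q was highest in TAM_H2Ab1, TAM_cycling and TAM_C1q. Summed over the 3 chains, NTT TAM_H2Ab1 held 26546 CPM (26332 to 26762), TAM_cycling 23255 CPM, TAM_C1q 21162 CPM, Monocyte_1 12387 CPM and Macro 11279 CPM. Infl_Mono (4396 CPM), Neutro (3833 CPM) and TAM_Spp1 (3811 CPM) followed, the latter pair with overlapping intervals. NTT dendritic cells held 534 CPM and NK_cells 179 CPM. In RTT, TAM_H2Ab1 (29896 CPM) and TAM_C1q (29450 CPM) led and did not differ beyond their intervals, before TAM_cycling (22738 CPM), Neutro (21262 CPM), Infl_Mono (18502 CPM) and TAM_Spp1 (14405 CPM). RTT Ctsk_Macro, the macrophages that express the protease gene Ctsk and had no cell in NTT, held 2450 CPM, less than any other macrophage population.

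Over all cells, the summed C1q level was 10308 CPM in NTT and 20714 CPM in RTT, a log2 ratio of 1.01 (1.00 to 1.01). It was 0.66 (0.64 to 0.69) in monocytes and 0.22 (0.21 to 0.22) in macrophages. The populations behind these classes differed. The ratio was 2.07 (2.04 to 2.11) in Infl_Mono and 1.92 (1.87 to 1.97) in TAM_Spp1, but -0.12 (-0.16 to -0.08) in Monocyte_1, -0.12 in Macro, -0.03 in TAM_cycling and 0.17 in TAM_H2Ab1. TAM_C1q cells were 17 in NTT and 2001 in RTT, and at 21162 and 29450 CPM their intervals did not overlap. TAM_C1q alone held 58.0% of all C1q UMIs of the RTT library and 1.43% of those of the NTT library, in which Monocyte_1 held the largest part (33.2%).

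Most single cells held either much or little C1q. The share above a summed 5000 CPM was 39.7% in NTT (37.9 to 41.4, 1180 cells) and 73.4% in RTT (72.1 to 74.6, 3552 cells). The cut was set after the values were seen, and 9.58% of NTT and 4.19% of RTT cells lay near it, between 2500 and 10000 CPM. Cells above it had a median of 18000 CPM in NTT and 27153 CPM in RTT, and cells below it 145 and 217 CPM. Cells above were also deeper, with medians of 6392 and 9108 UMIs against 4892 and 5662 UMIs below. Shares of C1q-high cells were 24.5% (21.2 to 28.1) in NTT and 48.9% (38.5 to 59.5) in RTT Infl_Mono, and 20.2% (14.8 to 26.6) and 59.2% (55.6 to 62.9) in TAM_Spp1. In Monocyte_1 they went the other way, 61.6% (58.5 to 64.6) and 48.5% (38.3 to 58.7), with intervals that just overlapped. With the line at 10000 CPM, Infl_Mono stood at 17.6% and 45.7%, and TAM_Spp1 at 14.0% and 52.4%.

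**Figure D2:**
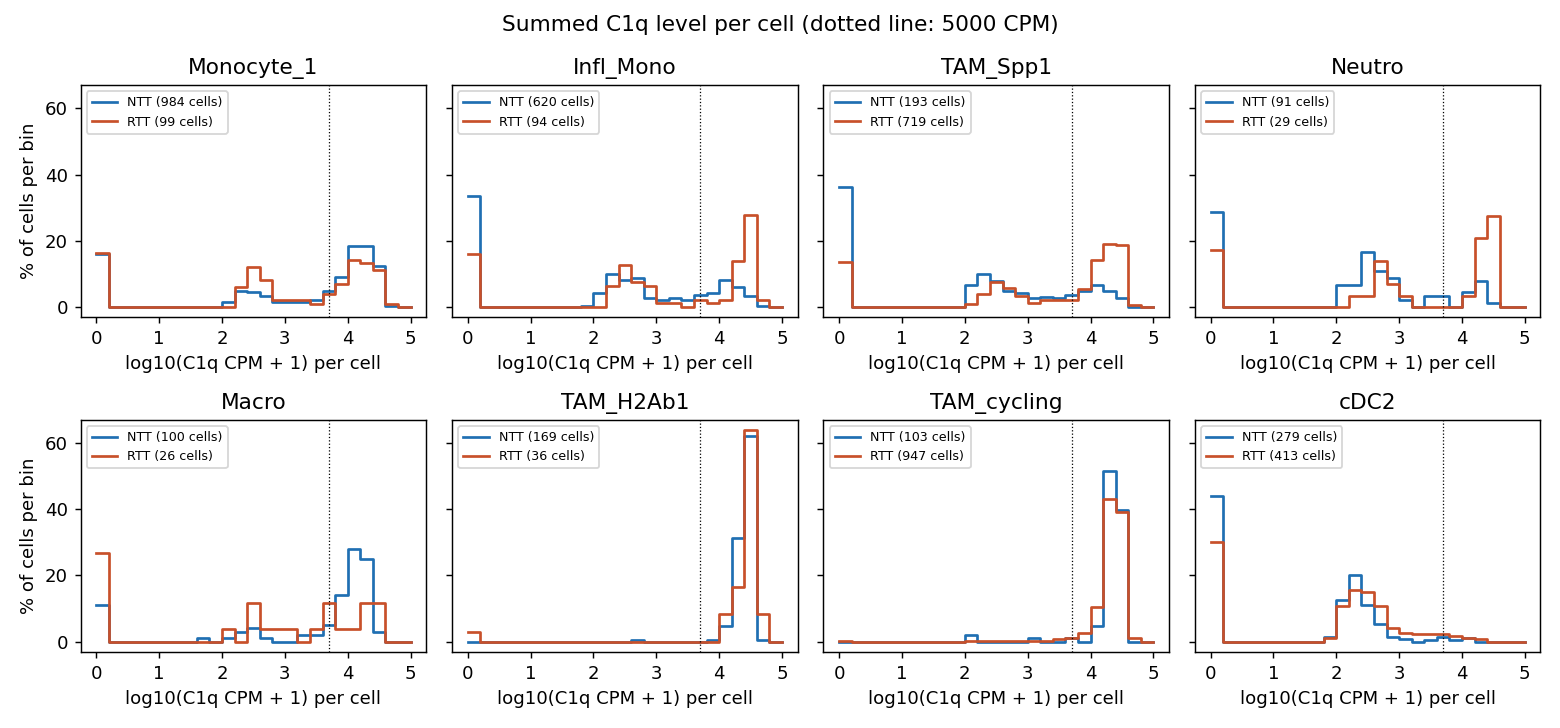
Summed C1q level per cell, as log10(CPM + 1), in 8 populations: each line gives the share of cells per bin in 1 library, and the dotted line marks 5000 CPM. Infl_Mono, TAM_Spp1 and Neutro have a low and a high mode whose weights differ between libraries (20.2% of NTT and 59.2% of RTT TAM_Spp1 cells lie right of the line), whereas TAM_H2Ab1 and TAM_cycling lie almost wholly in the high mode in both.

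The C1q-high cells of a population did not carry the same other markers in both libraries. The 46 C1q-high RTT Infl_Mono cells had a median of 17310 CPM of the 5 macrophage markers and 1388 CPM of the 4 monocyte markers measured, against 4871 and 14788 CPM in the 152 C1q-high NTT cells. The 15 C1q-high RTT Neutro cells had a median of 18169 CPM of macrophage markers, against 391 CPM in the 14 C1q-low ones. In Neutro, the summed C1q ratio was 2.47, with 15 of 29 RTT and 14 of 91 NTT cells above 5000 CPM. The part of these markers in the C1q values was not tested.

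Dendritic cells held little C1q. After thinning each cell to 2000 UMIs, 25.2% of NTT and 38.8% of RTT dendritic cells had a C1q UMI, with median depths of 6035.5 and 5804.5 UMIs before thinning. The shares in NK_cells, which should lack the gene, were 30.5% and 53.7%, with median depths of 5358.5 and 3967 UMIs. The dendritic shares were thus not above those of NK_cells. Summed over cells, dendritic cells held 534 CPM in NTT and 1191 CPM in RTT, and NK_cells 179 and 2371 CPM. Unthinned, the dendritic shares were 55.1% and 70.0%. The median dendritic cell held 112 CPM in NTT and 199.5 CPM in RTT, the median NK_cells cell 151 and 236 CPM. The NK_cells ratio of 3.72 rested largely on 1 RTT cell with 52.4% of the C1q UMIs of that group, and was 2.78 without the top cell of each library. C1q-high cells were 1.63% of NTT (8 of 492) and 4.56% of RTT dendritic cells (24 of 526). In NK_cells they were 0 of 178 in NTT and 3 of 51 in RTT. In cDC1, the cross-presenting dendritic cells, the summed ratio was -0.03 (-0.26 to 0.20), in cDC2 1.16 (1.04 to 1.27) and in DC3, the mature ones, 2.52 (2.36 to 2.69). In NTT DC3 a single cell held 53.4% of the C1q UMIs, and without the top cells the DC3 ratio was 3.04.

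**Figure D3:**
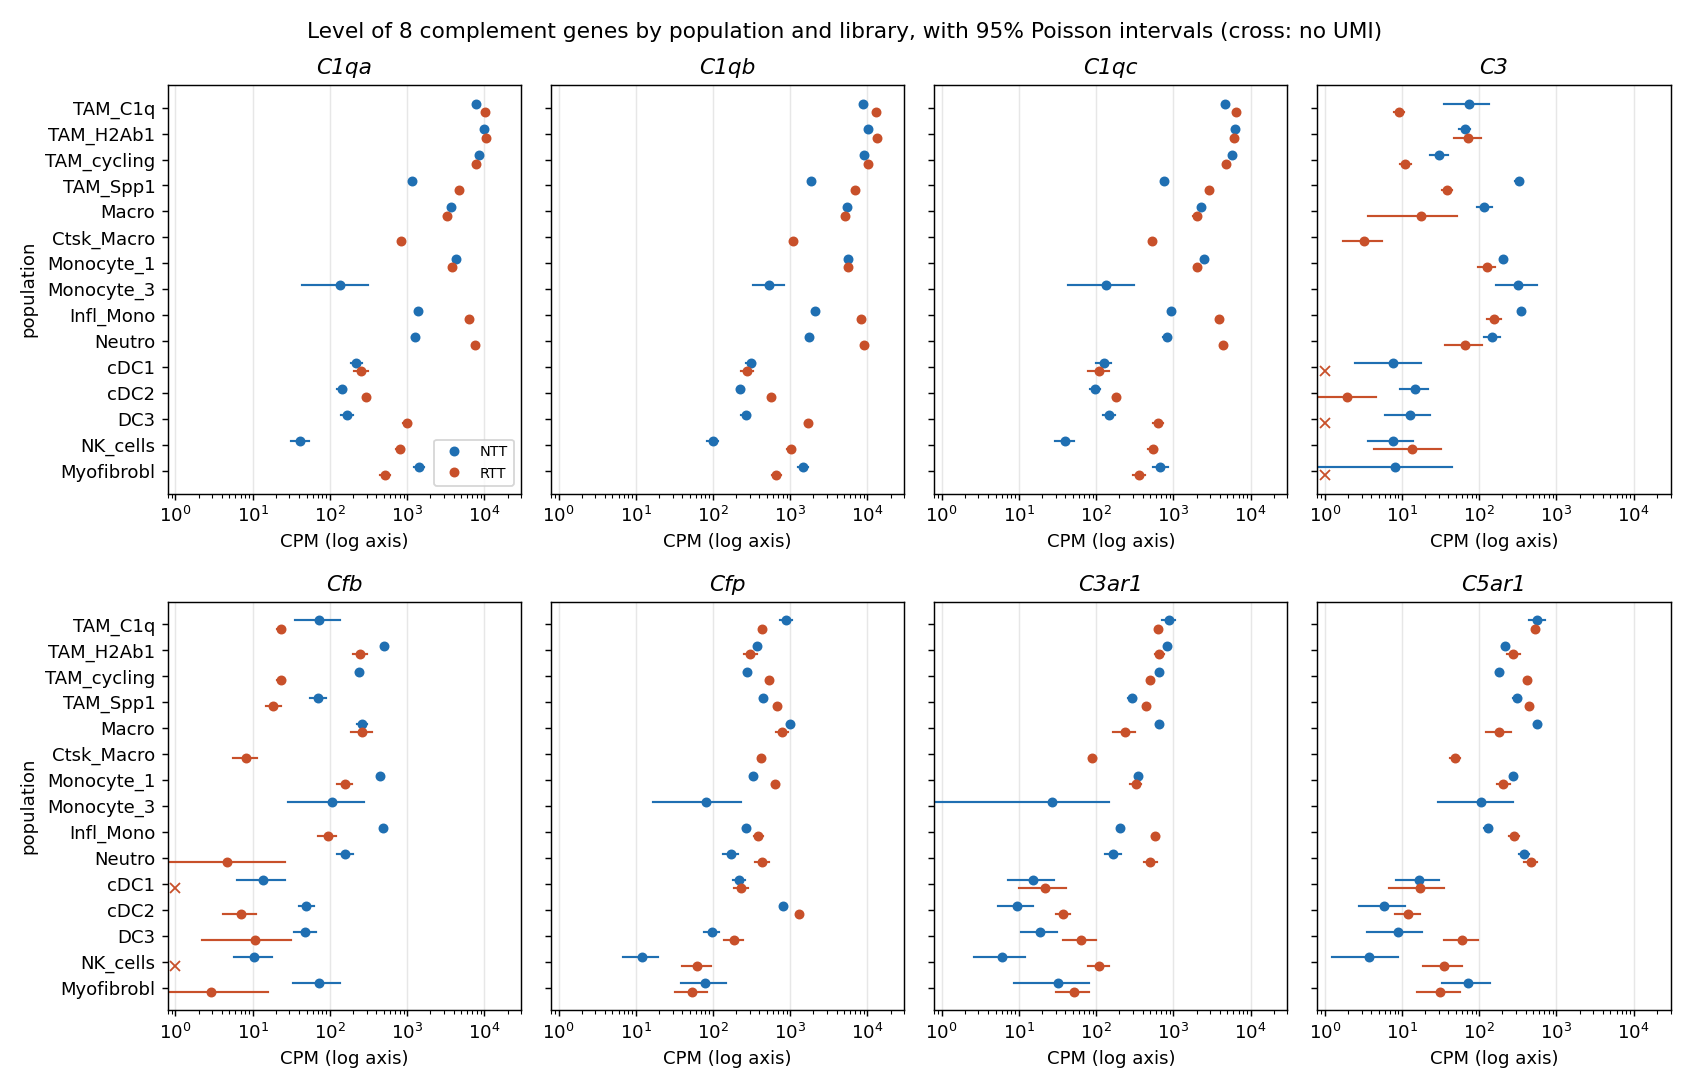
CPM (log axis) of 8 complement genes in each population with at least 10 cells of the NTT (blue) or RTT (orange) library. Points are values of 1 library, bars 95% Poisson intervals and crosses populations with 0 UMIs. In C3 and Cfb the orange points lie left of the blue ones in most populations. In the C1q panels the pairs lie apart mainly in TAM_Spp1, Infl_Mono, Neutro, cDC2, DC3 and NK_cells, and in Myofibrobl in the reverse order.

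The chains were not in the same proportion everywhere. NTT macrophages held 1.09 C1qb UMIs per C1qa UMI (1.08 to 1.11) and RTT macrophages 1.28 (1.28 to 1.29). The same order was seen in TAM_H2Ab1, at 1.04 (1.02 to 1.06) and 1.28 (1.23 to 1.34), and in TAM_cycling, at 1.07 (1.05 to 1.09) and 1.30 (1.28 to 1.31). Monocytes as a class stood at 1.36 (1.34 to 1.38) and 1.35 (1.31 to 1.40), over populations that went in opposite directions. Monocyte_1 held 1.32 (1.30 to 1.35) in NTT and 1.49 (1.40 to 1.57) in RTT, the order of the macrophages, and Infl_Mono 1.54 (1.48 to 1.60) and 1.28 (1.23 to 1.34), the reverse. C1qc per C1qa stayed in a narrower range, at 0.652 in NTT and 0.622 in RTT macrophages. The log2 ratios between libraries in macrophages, 0.36 for C1qb against 0.13 for C1qa and 0.07 for C1qc, restate these proportions from the same counts.

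**Figure D4:**
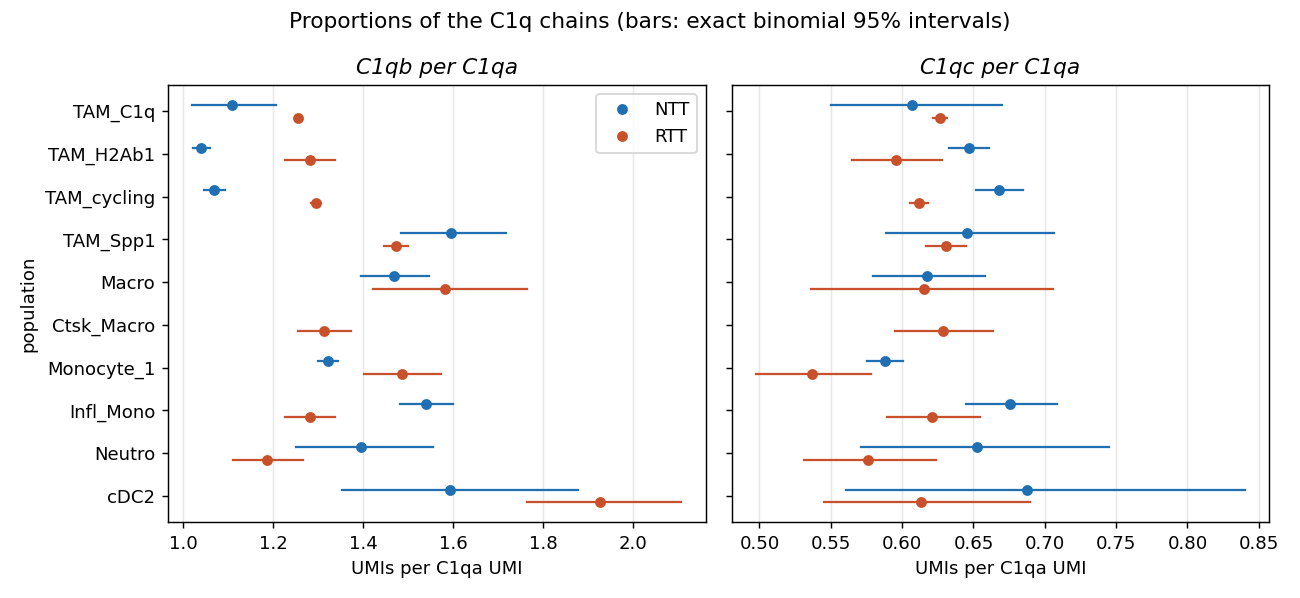
UMIs of C1qb (left) and of C1qc (right) per UMI of C1qa in 10 populations of the NTT (blue) and RTT (orange) library, with exact binomial 95% intervals. In TAM_H2Ab1 and TAM_cycling C1qb per C1qa is near 1.0 to 1.1 in NTT and near 1.3 in RTT, while C1qc per C1qa is near 0.6 to 0.7 in both.

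C3, the central component, was a product of monocytes and of Spp1+ macrophages in the NTT tumour. NTT Infl_Mono held 348 CPM (328 to 370) and TAM_Spp1 324 CPM (290 to 361), which overlapped, and the 11 Monocyte_3 cells 320 CPM (166 to 560), an interval that also took in Monocyte_1 at 205 CPM (193 to 217). Neutro (148 CPM) and Macro (117 CPM) overlapped, and TAM_C1q (72.9 CPM), TAM_H2Ab1 (64.9 CPM) and TAM_cycling (30.0 CPM) held less. Dendritic cells held 12.7 CPM and NK_cells 7.54 CPM. TAM_H2Ab1, TAM_cycling and TAM_C1q, the populations richest in C1q, thus held less C3 than Infl_Mono and TAM_Spp1.

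In RTT, C3 was led by Infl_Mono at 156 CPM (126 to 192) and Monocyte_1 at 126 CPM (97.1 to 160), whose intervals overlapped, and TAM_C1q held 9.21 CPM (7.87 to 10.7). The log2 ratio was -3.06 (-3.34 to -2.79) in TAM_Spp1, -1.44 (-1.90 to -0.97) in TAM_cycling, -1.16 (-1.48 to -0.85) in Infl_Mono and -0.71 (-1.09 to -0.35) in Monocyte_1. It was 0.15 (-0.51 to 0.76) in TAM_H2Ab1, where no difference was detectable at 143 and 26 UMIs. After thinning to 2000 UMIs, 24.4% of NTT and 3.47% of RTT cells had a C3 UMI. In NK_cells those shares were 0.610% and 4.88% (0.60 to 16.5, 2 of 41 cells). An RTT interval so wide cannot place the RTT share over all cells above or below background. The RTT Infl_Mono share, 26.1% (17.5 to 36.3), lay above that interval.

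Factor B gave the largest ratio of the set over all cells. NTT TAM_H2Ab1 held 507 CPM (478 to 538) and Infl_Mono 487 CPM (463 to 512), which overlapped, and Monocyte_1 held 452 CPM (434 to 470), which overlapped Infl_Mono but not TAM_H2Ab1. Macro (261 CPM) and TAM_cycling (238 CPM) followed, and TAM_Spp1 held 71.0 CPM, although its C3 was among the highest. In RTT, Macro (258 CPM) and TAM_H2Ab1 (247 CPM) led with overlapping intervals, and TAM_C1q held 23.1 CPM. The ratio was -3.35 (-3.57 to -3.14) in TAM_cycling, -2.38 (-2.80 to -1.99) in Infl_Mono, -1.93 (-2.41 to -1.46) in TAM_Spp1, -1.53 (-1.87 to -1.22) in Monocyte_1 and -1.04 (-1.37 to -0.73) in TAM_H2Ab1. In Macro no difference was detectable, at -0.01 (-0.52 to 0.47). Dendritic cells also held less, 41.9 CPM in NTT and 6.45 CPM in RTT, with a ratio of -2.70 (-3.44 to -2.03), while NK_cells held 14 UMIs in NTT and 0 in RTT.

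In NTT, C3 and Cfb went in opposite directions with respect to C1q inside a population. In NTT Infl_Mono, C3 was at 159 CPM (133 to 188) in C1q-high and 418 CPM (392 to 445) in C1q-low cells, whereas Cfb was at 901 CPM (838 to 967) in C1q-high and 335 CPM (312 to 359) in C1q-low cells. NTT TAM_Spp1 showed the same pair of orders, with C3 at 194 and 363 CPM and Cfb at 135 and 51.9 CPM. In NTT Monocyte_1 they were weaker, C3 at 191 and 232 CPM and Cfb at 482 and 391 CPM. In RTT TAM_Spp1 the order of C3 was the same, 13.4 CPM (9.65 to 18.2) in C1q-high and 97.7 CPM (81.5 to 116) in C1q-low cells, but that of Cfb was not seen, at 15.7 CPM (11.6 to 20.9) and 25.2 CPM (17.3 to 35.4), which overlapped. In Infl_Mono the C3 ratio between libraries was not the same on both sides of the line, and its intervals did not overlap. In C1q-low cells it was 0.08 (-0.26 to 0.41), at 418 CPM in NTT and 442 CPM in RTT, and in C1q-high ones -2.82 (-3.98 to -1.85). The latter rest on 9 RTT UMIs, in the 46 cells that carried macrophage markers. Cfb was lower in RTT on both sides, at -3.14 (-3.63 to -2.69) in C1q-high and -2.17 (-3.04 to -1.41) in C1q-low Infl_Mono cells. In TAM_Spp1 C3 was lower in RTT in C1q-high (-3.85) and in C1q-low cells (-1.89), as was Cfb (-3.10 and -1.04).

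**Figure D5:**
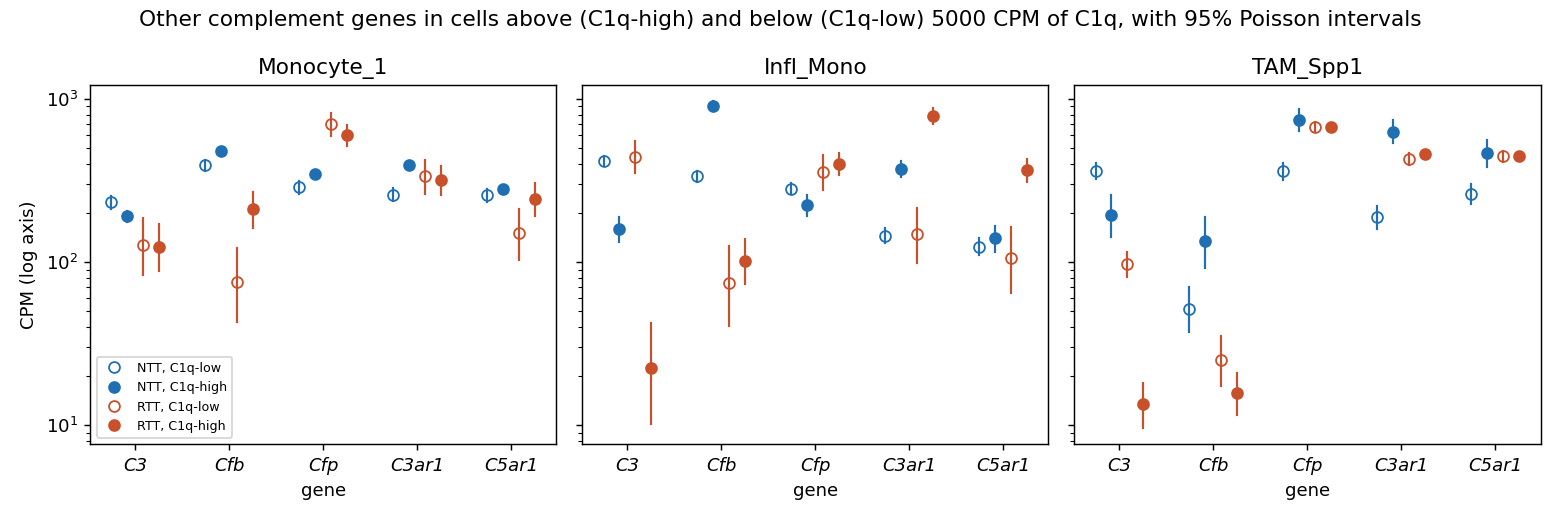
CPM (log axis) of 5 complement genes in C1q-high (filled) and C1q-low (open) cells of 3 populations in the NTT (blue) and RTT (orange) library, with 95% Poisson intervals. In Infl_Mono the open C3 points of both libraries lie together at 418 and 442 CPM, and the filled RTT point lies at 22.4 CPM.

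Properdin was the member with a high level in dendritic cells. cDC2, the dendritic cells that present to helper T cells, held 808 CPM (766 to 852) in NTT and 1285 CPM (1241 to 1330) in RTT, a ratio of 0.67 (0.58 to 0.76), and 67.4% and 86.1% of them had a Cfp UMI after thinning, against 2.44% and 9.76% of NK_cells. In NTT, Macro (991 CPM, 918 to 1068) and TAM_C1q (882 CPM, 732 to 1054) were the highest and overlapped, and TAM_C1q also overlapped cDC2. In RTT no other population reached the level of cDC2, and Macro was next at 786 CPM (659 to 931). cDC1 held much less, 219 CPM in NTT and 230 CPM in RTT, with no difference detectable (0.07, -0.32 to 0.46). Among monocytes and macrophages, Cfp was higher in RTT Monocyte_1 (0.98, 0.81 to 1.15), TAM_cycling (0.93) and TAM_Spp1 (0.58), and lower in Macro (-0.33, -0.61 to -0.06). TAM_C1q, at 882 CPM in NTT and 433 CPM (424 to 443) in RTT, was also lower in RTT, on 121 NTT UMIs. In C1q-low dendritic cells the ratio was 1.09 (1.00 to 1.17), against 1.06 in all dendritic cells.

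Serping1, the C1 inhibitor, was close to absent from the leukocytes. Its UMIs numbered 31 in NTT and 13 in RTT. Of these, 27 and 7 lay in the 14 and 24 cells labelled Myofibrobl, where fibroblast markers summed to 6924 and 3866 CPM and which a CD45 sort should remove. Its level there was 216 CPM (142 to 314) in NTT and 19.96 CPM (8.02 to 41.1) in RTT. All macrophages together held 2 UMIs in NTT and 5 in RTT. Over all cells the ratio was -2.44 (-3.50 to -1.47), and without Myofibrobl it was -0.60.

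The receptor genes were highest in macrophage populations and low in dendritic cells. C3ar1, the C3a receptor, was highest in NTT TAM_C1q (867 CPM, 718 to 1038) and TAM_H2Ab1 (820 CPM, 783 to 859), which overlapped, followed by TAM_cycling (652 CPM) and Macro (650 CPM). In RTT, TAM_H2Ab1 (658 CPM, 577 to 747), TAM_C1q (639 CPM, 628 to 651) and Infl_Mono (584 CPM, 524 to 649) overlapped. cDC1, cDC2 and DC3 stayed at or below 63.6 CPM in both libraries, against 6.03 and 108 CPM in NK_cells. C3ar1 was higher over all cells in RTT (0.50, 0.46 to 0.54) but lower within macrophages (-0.34, -0.39 to -0.29). It was 1.50 (1.31 to 1.69) in Infl_Mono, 0.63 (0.45 to 0.81) in TAM_Spp1, -0.38 in TAM_cycling, -0.32 in TAM_H2Ab1 and -1.47 (-1.97 to -1.0) in Macro. With each cell thinned to 2000 UMIs, the ratio within macrophages was 0.01. On the sides of the C1q line, the Infl_Mono ratio was 1.08 (0.85 to 1.31) in C1q-high cells, those of RTT being the 46 with macrophage markers, and 0.04 (-0.57 to 0.60) in C1q-low ones. In TAM_Spp1 it was -0.46 (-0.71 to -0.21) in C1q-high and 1.19 (0.93 to 1.46) in C1q-low cells. C1q-high monocytes stood at 0.57 (0.42 to 0.73), with 316 of their 416 RTT UMIs in Infl_Mono. C1q-high Monocyte_1 cells stood at -0.31 (-0.62 to -0.02) and C1q-high macrophages at -0.38 (-0.44 to -0.33). C1q-high cells of all populations stood at -0.01 (-0.05 to 0.04), a value over unlike mixtures, since 759 of 1180 such cells were monocytes in NTT and 3411 of 3552 were macrophages in RTT.

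C5ar1, the C5a receptor that draws neutrophils and macrophages, was highest in NTT Macro (567 CPM, 513 to 626) and TAM_C1q (561 CPM, 443 to 701), which overlapped, followed by Neutro (379.6 CPM). In RTT, TAM_C1q (533 CPM, 522 to 544) and Neutro (467 CPM, 379.6 to 567) led and overlapped. The ratio was 1.17 (1.01 to 1.33) in TAM_cycling, 1.14 (0.87 to 1.41) in Infl_Mono, 0.52 (0.35 to 0.70) in TAM_Spp1, -0.41 (-0.70 to -0.12) in Monocyte_1 and -1.64 (-2.22 to -1.11) in Macro. In Infl_Mono it was 1.39 (1.03 to 1.75) in C1q-high cells, those of RTT being the 46 with macrophage markers, and -0.22 (-0.96 to 0.43) in C1q-low ones, where no difference was detectable. In TAM_Spp1 it was -0.07 (-0.35 to 0.22) in C1q-high and 0.76 (0.53 to 1.00) in C1q-low cells. Over all macrophages the order was the opposite, 0.81 (0.73 to 0.89) in C1q-high and -0.83 (-1.03 to -0.62) in C1q-low cells. The C1q-low cells of that class were not the same populations in both libraries: 154 of 185 in NTT were TAM_Spp1, whereas 241 of 598 in RTT were Ctsk_Macro, which had no NTT cell and held 14.3 CPM of C5ar1. Both receptors were detected together in 24.8% of NTT and 34.5% of RTT macrophages after thinning. Over thinned RTT macrophages, 59.0% of cells with a C3ar1 UMI also had one of C5ar1, against 47.0% of the rest. These cells are a mixture: C3ar1 and C5ar1 were detected in 13.3% and 6.12% of 278 Ctsk_Macro cells, against 58.4% and 54.0% of all RTT macrophages. The part of this mixture in the contrast was not tested.

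The difference over all cells can be divided into a part from the shares of the populations and a part from levels within them. Ctsk_Macro, without an NTT cell, was given its RTT level in both libraries. It thus entered only the part from the shares. With the mean of both libraries as weights, 60.6% of the summed C1q difference of 10406 CPM came from the shares, as did 75.1% of that of C5ar1. For C3 (48.1% of -135 CPM) and Cfb (45.7% of -283 CPM), the shares and the levels within populations gave about as much, and both parts were negative. For C3ar1 the shares gave 178 CPM and the levels -40.1 CPM, but the sign of the latter depended on the weights, at -112 CPM with NTT and 32.1 CPM with RTT levels. The part from the shares also depended on the weights for Cfb, from 26.4% with RTT to 65.0% with NTT levels, and for Cfp it ranged from -5.98% to 135%.

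Across 25 library-by-population profiles of at least 20 cells, the 3 C1q chains were the genes most like each other on the log2(CPM + 10) scale, with Pearson r of at least 0.99, and Ms4a7, a macrophage membrane protein gene, stood next to C1qa (0.97) and C1qc (0.98). The profiles share 2 libraries and their depth, so these values are descriptions. The genes most like C3ar1 were C1qc, C1qb and C1qa (0.98, 0.97 and 0.97). Those most like C5ar1 were C3ar1 (0.94), the scavenger receptor gene Msr1 (0.94) and C5ar2 (0.93), the other receptor for C5a. By Spearman's rho C5ar2 (0.92) was closest, and C3ar1 (0.82) and Msr1 (0.83) were not among the 3 closest. C3 stood apart from C1qa (0.46) and nearer Cfb (0.73). Most like C3 were Tarm1, Hk3 and Prdx5 (each 0.89), and most like Cfb were the interferon-induced gene Oas1g, Il18bp, which encodes a trap for interleukin-18 (both 0.90), and Spon1 (0.89). Cfp was most like Fes, Gpx1 and Dab2, at 0.89, 0.89 and 0.88, none of which was among its 3 closest by Spearman's rho.

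The other complement genes came from a list of 49, of which 31 were in the matrix and 17 had at least 50 UMIs. Over all cells 5 of the 17 were at least 2-fold higher in RTT, 3 were at least 2-fold lower and 9 lay between, with a median log2 ratio of 0.30. Among all genes with that minimum, 9.76% were higher and 12.7% lower. Among initiators, the ficolin gene Fcna (2.34) and the collectin gene Colec12 (2.69, on 6 NTT UMIs and highest in Myofibrobl) were higher, C1ra, a protease partner of C1q, was lower (-1.39), and C4b, which acts just after C1, was at 0.28. Within macrophages, where the summed C1q ratio was 0.22, Fcna was at 0.87, C1ra at -2.02 and C4b at -1.03. Of the regulators, Cd59a (3.10) and Cd59b (2.98, on 4 NTT UMIs), which encode inhibitors of membrane attack, were higher, and in RTT both were highest in Ctsk_Macro, with Cd59a at 78.9 CPM. Cr1l was at 0.16 and Clu at 0.30. Clu was highest in Myofibrobl, at 953 CPM in NTT and 1052 CPM in RTT. Within macrophages Clu was at -1.65, on 10 and 21 UMIs. Among receptors, Itgb2 (-1.16) and Itgax (-1.32), whose products form complement receptor 4, were lower, and within macrophages they were at -1.71 and -2.18. Itgam, which pairs with Itgb2 in complement receptor 3, was at 0.06. C1qbp, whose product binds C1q and resides mainly in mitochondria, was higher (1.50), at 1.52 in monocytes and 0.99 in macrophages. Over all cells Cd93 (0.82), Calr (0.26), C5ar2 (0.38) and Lair1 (-0.41) were within 2-fold. In monocytes 1 of 12 such genes was higher and 0 were lower, against 4.89% and 8.5% of all genes with 50 UMIs there. In macrophages 2 and 4 of 15 were higher and lower, against 6.2% and 7.57%. The 2 higher genes were Cd59a (1.95) and Cd59b (1.45). In dendritic cells 0 and 1 of 9 were, against 7.54% and 8.36%. The 1 lower gene there was Cd93, at -3.26 (-4.37 to -2.32, on 93 and 10 UMIs). Itgax, lower over all cells, was at 0.68 (0.52 to 0.83) in dendritic cells.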

How the data were processed

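CD45+ cells of 1 NTT and 1 RTT tumour were sequenced with 10x 3′ chemistry. The authors aligned and counted reads with Cell Ranger 6.1.1 (mm10, per the labels), filtered cells by genes, mitochondrial and ribosomal content, kept genes found in several experiments, and named populations on clusters from a map shared with another model. The deposited values are UMI counts without any normalisation, in a matrix of 7815 cells by 12584 genes. These counts were summed per library and population and scaled to CPM with Python 3.11.15, numpy 2.4.6, scipy 1.17.1 and pandas 2.3.3, and plotted with matplotlib 3.10.9. edgeR 4.0.16 gave scaling factors only. Ratio intervals are exact binomial, CPM intervals Poisson and share intervals Clopper-Pearson, at 95%. A UMI in 3′ data is not scaled by transcript length, so members were not ranked against each other beyond their own UMI totals. Levels were computed for populations of at least 10 cells and ratios for at least 20 in both libraries. A difference was called at 2-fold. No ratio was taken where both libraries had 3 UMIs or fewer, or where a floor of 3 UMIs in place of 0 turned its sign. Every member was named, as was each gene of the wider list with at least 50 UMIs, except 1 that is not reported here, and, per member, the 3 genes of highest Pearson r among those with at least 500 UMIs. Members, lists and tests were chosen with earlier results of these data known. The split of cells by C1q, the ratios without top cells and the motifs GAGGAA and TTNCNNAA were added after the values were seen. No doublet caller was run, and leaving out the 5% deepest cells per population was tried instead. Scripts were tested on simulated data. Promoters of C1qa, Cfb and Serping1 and protein sequences were not used here. Columns of cells from other samples numbered 0.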

Additional observations from a re-analysis of the deposited data

Results flagged for a closer look

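C3ar1 and C5ar1 differed in direction between populations, a difference that was not tested. The log2 ratio of C3ar1, RTT over NTT, was highest in NK_cells (4.17, 3.05 to 5.48, on 8 and 40 UMIs) and lowest in Macro (-1.47). In RTT NK_cells 1 cell held 67.5% of the C3ar1 UMIs, and without the top cell of each library the ratios were 2.83 and -1.64. For C5ar1 the highest was NK_cells (3.23, on 5 and 13 UMIs) and the lowest Macro (-1.64), and without the top cells they were 3.10 and -1.73. RTT NK_cells also held macrophage markers at a summed 1063 CPM, against 207 CPM in NTT, and the part of these in the values was not tested.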

How the results depend on the processing

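No paired analysis was possible because each group had 1 library, and leaving out a replicate was not possible for the same reason. The summed C1q ratio of 1.01 over all cells was 0.98 with TMM scaling, 0.97 with median-of-ratios scaling, 1.36 with the mean of per-cell CPM, 0.95 in cells with at least 1500 genes, 1.36 with cells thinned to 2000 UMIs and 1.04 without the 5% of cells with most UMIs. So whether C1q passed 2-fold depended on the scaling and the cell filter. The count of members 2-fold apart within monocytes was 1 and became 2 in cells with at least 1500 genes, where C3 reached -1.02, and 2 with monocytes and macrophages as 1 compartment, where C3 was at -3.55. Over all cells the count was 4 and became 6 with per-cell CPM or thinning, which moved C1qa and C1qc past 2-fold. In dendritic cells it ranged from 2 to 4, and it included C1q chains, whose detection there was not above that in NK_cells. The part of the Cfp difference that came from population shares was 64.5% and turned to -5.98% with RTT levels as weights. C3ar1 within macrophages, at -0.34, became 0.01 after thinning and 0.22 with monocytes included. The shares of all genes called depended on the minimum, 8.18% higher and 9.6% lower at 500 UMIs against 9.76% and 12.7% at 50 UMIs. Over all cells, scaling moved ratios by -0.03. With 1 tumour per group, counting intervals leave out the spread between mice, populations under 30 cells such as RTT Macro and RTT Neutro rest on few cells, and free RNA was judged only against NK_cells.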
